A study of Mus musculus with 34 samples.

Results

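The markers of Kupffer cells and other macrophages were read across mouse liver tumors driven by c-Myc, by TGFα or by both transgenes, and across livers in which the transgenes had been turned off. The set held 10 genes chosen by name: Clec4f, Vsig4, Marco, Cd5l, Cd163 and Timd4 as markers of the resident macrophages of the liver, and Csf1r, Cd68, C1qa and C1qb as general macrophage markers. On the array they were covered by 12 probes of 41174, 3 for Csf1r and 1 for each of the others, and all 12 were among the 31563 probes tested.

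Kupffer cells are the macrophages that live in the liver sinusoids, where they clear bacteria, old red cells and debris from portal blood. They arise largely from embryonic precursors, renew themselves locally and depend on CSF1 or IL34 signalling through CSF1R, and when they are lost, monocytes from the blood can take their niche. Clec4f, Vsig4, Marco and Timd4 mark the settled cell, whereas Cd68 and the C1q chains are made by macrophages of most origins.

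The series measured 34 samples on 2-colour arrays, each sample in Cy3 against a pooled mixed-gender mouse liver reference of strain C57BL/6 in Cy5. The groups were control livers with no transgene and no doxycycline (n = 3), liver tumors with the c-Myc transgene (n = 7), with TGFα (n = 3) or with TGFα and c-Myc (n = 3), all at 0 weeks on doxycycline, and livers of each of the 3 genotypes after 4 or 12 weeks on doxycycline, when the transgene was off (n = 3 each). The promoter that drove the transgenes, the age and sex of the animals and the strain of the samples were not given in the sources used here, and each tumor was labelled as an individual one. A sex score, Y-linked genes less Xist, differed within and between groups. It was -6.60 in control 1, 6.51 and 5.87 in controls 2 and 3, and -6.14 and -4.91 in the fitted TGFα off 4 weeks livers. With the score as a covariate, 179 of 180 member results were called as before and 1 lost its call. Nothing in the labels paired animals across groups, so p-values measure the spread between these samples. The TGFα off 12 weeks arrays shared a slide, as did the TGFα/Myc off 12 weeks arrays and the fitted TGFα off 4 weeks arrays. For these groups the spread is therefore that within a slide. The within-slide correlation was 0.24. With slide as a random block, 175 of 180 member results were called as before and 5 lost their call. A value below is the log2 ratio of sample over reference, so that 0 is the level of the pooled reference. In bulk liver RNA, fewer cells of a type and less RNA per cell cannot be told apart.

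Signal was well above background in Cy3 for 43.7% to 71.9% of probes per array. At the Myc probe A_52_P108346 the 7 Myc tumors lay at 2.10 to 6.39 and the 3 TGFα/Myc tumors at 3.36 to 5.65, against at most 0.25 in the controls. A_52_P278549 gave the same order (2.41 to 5.16 and 1.71 to 4.04, against at most 0.88), but a further Myc probe, A_51_P102096, did not, with the Myc tumors at -1.24 to 0.93 and the controls at -0.67 to 0.11. Tgfa was not raised in the TGFα/Myc tumors as a group. They lay at -2.41, -1.69 and -0.76 at A_51_P415126, against -1.26 to -0.45 in controls. At A_52_P555423 they lay at -0.07, -0.91 and 1.51, against 0.81 to 1.11, so that only tumor 3 was above the controls, at this probe alone. Whether these probes read the transgenes was not given in the sources used here, so the TGFα labels were taken as given and were not checked by these data. The library labelled TGFα tumor replicate 1 lay at 3.33 at the Myc probe A_52_P108346, within the range of the Myc tumors. Its label is therefore in question and it enters no comparison. TGFα tumor replicates 2 and 3 and TGFα off 4 weeks replicate 1, which shared a slide, were treated apart: in their reference channel the hepatocyte markers sat at the median percentile of 60.4 to 85.6 among all probes and intestine markers at 99.6, whereas on the other 31 arrays hepatocyte markers sat at 99.5 or above and intestine markers at 70.7 or below. Their sample channel showed the same, with hepatocyte markers at percentile 67.3 to 83.8 and intestine markers at 97.8 to 99.5. Myc tumors 2 to 7 were scanned on another scanner and on days that held no other group, so for these 6 tumors scan and group cannot be told apart. Myc tumor 1 shared its scan day with control 2 and the 3 Myc off 4 weeks livers. These 5 arrays and Myc tumors 2 to 7 were the 11 read with the scanner software's default background setting, and controls 1 and 3 and all other groups had a local background setting, so that for the Myc tumors against the 12-week livers or the TGFα/Myc tumors this setting and the group cannot be told apart in the processed signals. Normexp background correction and loess, applied alike to the mean signals of all arrays, gave 8 and 7 member calls for Myc off 12 weeks and TGFα/Myc tumors against Myc tumors, as many as the processed signals. Myc tumors 3 and 4 share a number in their deposited names. They were counted as separate tumors, as labelled, and averaging them gave 7 member calls against controls, as without averaging.

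The promoters of 2 resident and 2 general markers are shown because these genes had the largest called differences in each direction in the Myc tumors. RefSeq entries (GRCm38.p6) were found for 8 of the 10 genes, and the 250 bases upstream of the start are given 5′ to 3′ on the gene's strand. All 4 genes lie on the minus strand, Clec4f at chr6:83656117-83656366, Marco at chr1:120505025-120505274, Cd68 at chr11:69666171-69666420 and C1qb at chr4:136886201-136886450. Capitals mark matches on either strand to GAGGAA, the core of sites for the macrophage factor PU.1, or to TGCTGA, a site for MAF family factors.
Clec4f: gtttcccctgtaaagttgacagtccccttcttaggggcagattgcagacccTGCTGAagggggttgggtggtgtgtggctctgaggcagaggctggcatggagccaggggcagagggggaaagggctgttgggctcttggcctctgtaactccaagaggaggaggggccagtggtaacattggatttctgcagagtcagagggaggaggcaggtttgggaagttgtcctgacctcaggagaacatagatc
Marco: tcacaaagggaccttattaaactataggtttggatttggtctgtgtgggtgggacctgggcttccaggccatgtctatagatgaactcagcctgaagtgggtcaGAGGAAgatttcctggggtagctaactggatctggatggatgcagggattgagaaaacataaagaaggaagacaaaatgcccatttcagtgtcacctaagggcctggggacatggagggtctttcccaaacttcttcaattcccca
Cd68: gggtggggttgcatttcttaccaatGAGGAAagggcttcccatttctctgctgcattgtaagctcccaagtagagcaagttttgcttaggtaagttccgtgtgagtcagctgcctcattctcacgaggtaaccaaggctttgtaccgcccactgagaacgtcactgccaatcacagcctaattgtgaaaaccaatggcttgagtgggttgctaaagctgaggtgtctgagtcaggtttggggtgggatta
C1qb: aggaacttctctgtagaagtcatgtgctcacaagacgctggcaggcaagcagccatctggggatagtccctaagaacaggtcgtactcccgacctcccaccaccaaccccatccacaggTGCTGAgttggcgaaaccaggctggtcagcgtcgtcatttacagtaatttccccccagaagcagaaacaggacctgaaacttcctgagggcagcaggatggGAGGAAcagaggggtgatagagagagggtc
GAGGAA stood in 5 of the 8 promoters (Vsig4, Marco, Cd5l, Cd68 and C1qb) and TGCTGA in 4 (Clec4f, Cd5l, Timd4 and C1qb), against 23.3% and 16.1% of all 32851 promoter windows of this length. C1qb and Cd5l held both, as did 3.68% of all windows, and Cd163 held neither. These letters describe the windows and are not evidence of binding.

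In Myc tumors, 5 of the 6 resident markers were lower than in control livers and 2 of the 6 general marker probes were higher, with none the other way. Clec4f, Marco, Cd163, Vsig4 and Timd4 fell by 29.1-fold to 3.29-fold, whereas Cd68 rose 5.84-fold and C1qb 2.84-fold. Over all probes tested, 15.9% were called lower and 18.3% higher in this comparison (limma, Benjamini-Hochberg adjusted p under 0.05). Over the main probes, the median difference was -2.48 for the 6 resident genes and 1.01 for the 4 general genes, against -0.01 for all probes tested. With scan day as a block, which rests on Myc tumor 1 and control 2, all 7 calls were lost (limma adjusted p of 0.159 for Clec4f to 0.900 for C1qb).

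Clec4f encodes a C-type lectin that in mice is made almost only by Kupffer cells. It lay at 0.10, 0.65 and 0.02 in the 3 controls and between -7.01 and -2.72 in the 7 Myc tumors, with a median of -4.14. Every Myc tumor was below every control, with a gap wider than the range of the controls. The difference was -4.86 (SE 0.77; limma adjusted p = 4.15e-05). Between Myc tumor 1 and control 2, scanned on 1 day, it was -3.50.

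Marco encodes a scavenger receptor that binds bacteria. The controls lay at -1.01, 0.84 and 1.66, and the Myc tumors between -5.40 and -2.05 with a median of -4.12. Control 1 was well below the other 2 controls, but the groups did not overlap. The difference was -4.36 (SE 0.76; limma adjusted p = 0.000125), and -3.66 between Myc tumor 1 and control 2 on the shared scan day.

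Cd163, the receptor that takes up haemoglobin bound to haptoglobin, lay at -1.43, -1.79 and -0.66 in controls and between -5.08 and -2.72 in Myc tumors, median -4.09. The groups did not overlap, and the difference was -2.69 (SE 0.50; limma adjusted p = 0.000227). Vsig4, a complement receptor that captures circulating bacteria, lay at -1.56, -1.30 and -1.87 in controls and between -5.33 and -2.39 in Myc tumors, median -3.21. For Vsig4, 3 tumors lay below the other 4 by a gap, and all 7 were under the controls, with a difference of -2.27 (SE 0.61; limma adjusted p = 0.00567). On the shared scan day Cd163 differed by -2.30 and Vsig4 by -1.78.

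Timd4 encodes a receptor for phosphatidylserine on dying cells and marks long-settled macrophages. It lay at 0.31, 1.12 and 1.17 in controls and between -1.87 and -0.12 in Myc tumors, median -0.82, again without overlap. The difference was -1.72 (SE 0.40; limma adjusted p = 0.00201), and -1.47 on the shared scan day. For all 5 resident genes called, no tumor overlapped with a control, as for 12.2% of all probes in that direction.

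Cd5l, a secreted scavenger protein of tissue macrophages, was the resident marker that did not fall. It lay at -1.68, -0.45 and -1.04 in controls and between -1.39 and 1.00 in Myc tumors, median 0.37. Of the 7 tumors, 5 were above all controls, and Myc tumor 1 (-1.39) and Myc tumor 7 (-0.49) were within their range. The difference of 1.19 (SE 0.47) missed the threshold (limma adjusted p = 0.0516), and between Myc tumor 1 and control 2 it was -0.94.

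**Figure D1:**
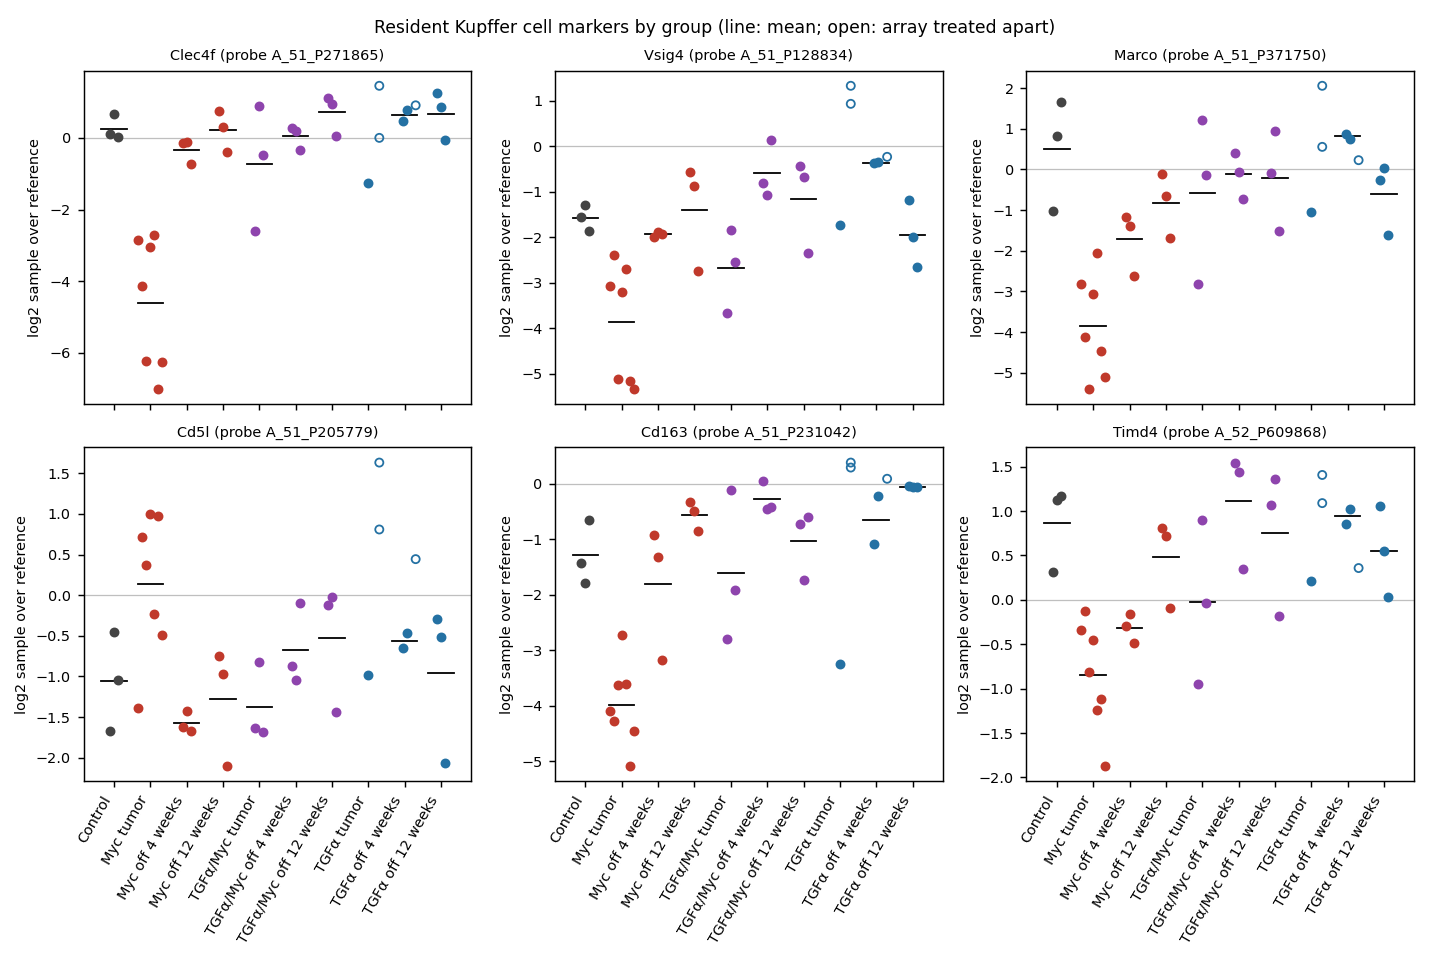
Log2 ratio of sample over reference (y axis, 1 scale per panel) for the 6 resident Kupffer cell markers in each of the 10 groups (x axis), 1 point per array, with a line at the mean of groups of more than 1 array and open points for the 3 arrays treated apart. The 7 Myc tumors lie below all 3 controls in every panel but that of Cd5l, and TGFα/Myc tumor 1 lies below its 2 group mates for Clec4f, Marco, Vsig4, Cd163 and Timd4.

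Among the general markers, Cd68, a glycoprotein of lysosomes, lay at -1.03, -0.21 and -0.49 in controls and between 1.26 and 2.68 in Myc tumors, median 1.91. All 7 tumors were above all controls, as were 13.4% of all probes. The difference was 2.55 (SE 0.41; limma adjusted p = 5.43e-05), and 1.47 between Myc tumor 1 and control 2.

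C1qa and C1qb encode chains of C1q, which starts the classical complement pathway and is made mainly by macrophages. C1qb lay at -1.26, -0.01 and -0.60 in controls and between -0.24 and 2.00 in Myc tumors, median 0.79. Myc tumor 1 was the lowest, inside the control range, while the other 6 were above it. The difference was 1.51 (SE 0.40; limma adjusted p = 0.00479), but -0.23 on the shared scan day. Without control 1 it was 1.19 and no longer called (limma adjusted p = 0.0530; range over all alternatives 0.00131 to 0.900). C1qa lay at -0.84, 0.14 and -0.72 in controls and between -0.64 and 1.26 in Myc tumors, overlapping widely. The C1qa difference was 0.51 (SE 0.43; limma adjusted p = 0.390), but -0.67 on the shared scan day.

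Csf1r, the receptor of CSF1 and IL34 on which macrophages depend, was not called at any of its 3 probes. At A_51_P365885 the controls lay at -1.22, -0.32 and -0.70 and the Myc tumors between -1.45 and -0.40, median -1.21, a difference of -0.36 (SE 0.32; limma adjusted p = 0.414). The probes A_52_P602091 and A_52_P570471 differed by 0.08 (SE 0.36) and -0.55 (SE 0.45). A_52_P570471 was dim, with 3 of 7 Myc tumors and all 3 TGFα/Myc off 12 weeks livers not well above background. Its lowest group mean was that of Myc off 12 weeks, whereas at the other 2 probes it was that of the TGFα/Myc tumors.

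**Figure D2:**
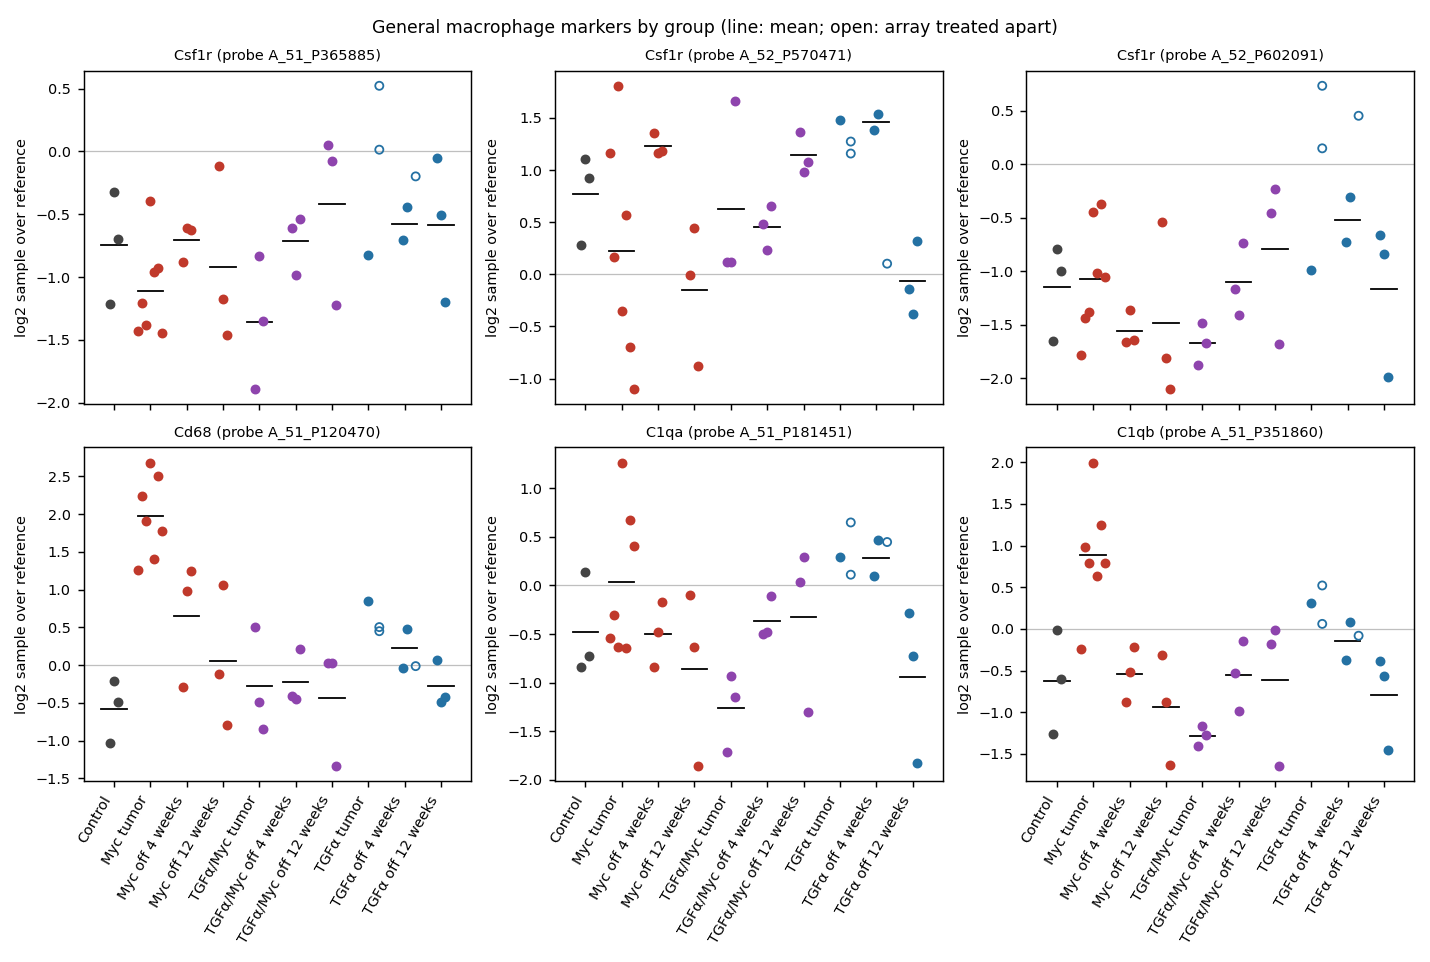
Log2 ratio of sample over reference (y axis, 1 scale per panel) for the 6 probes of the 4 general macrophage markers in each group (x axis), 1 point per array, with a line at the mean of groups of more than 1 array and open points for the 3 arrays treated apart. Cd68 is above all controls in all 7 Myc tumors, C1qb in 6 of them, and the 3 Csf1r probes overlap.

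The resident and general markers were also set against each other within each array. The mean of the 6 resident genes less the mean of the 4 general genes was -0.05 to 0.50 in the controls (mean 0.22, SD 0.28, n = 3) and -4.52 to -2.19 in the Myc tumors (mean -3.28, SD 0.94, n = 7). All 7 Myc tumors were below all of the other 24 arrays fitted, which lay between -1.82 and 0.89. The resident mean was -2.84 (SD 0.82) in Myc tumors against -0.38 (SD 0.43) in controls, and the general mean 0.45 (SD 0.54) against -0.60 (SD 0.49). On the shared scan day the resident mean was -2.43 in Myc tumor 1 and -0.15 in control 2. The general mean was -0.24 and -0.10 in the same arrays, so it was not higher in that tumor.

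**Figure D3:**
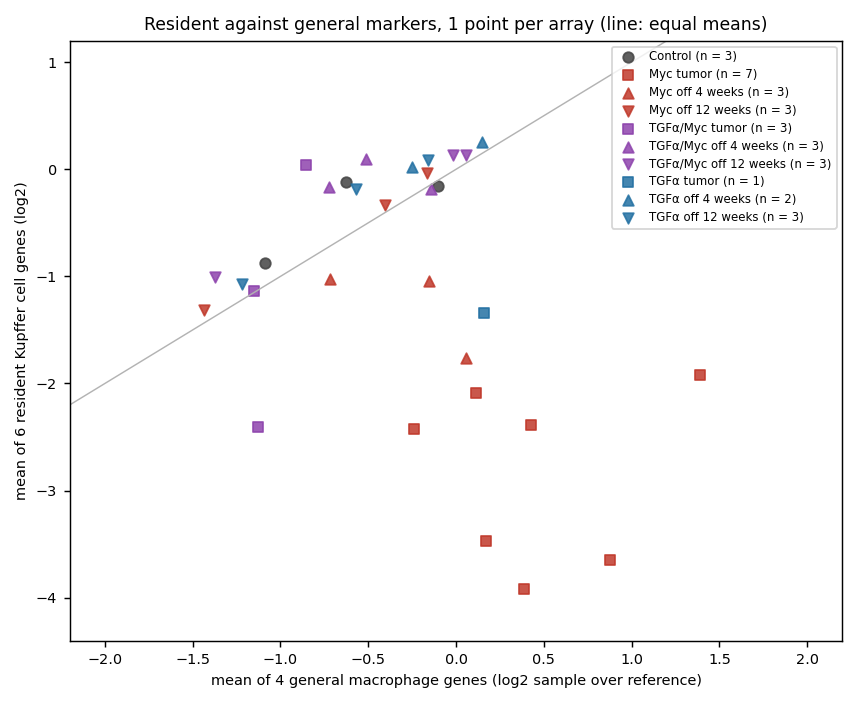
Mean log2 ratio of the 6 resident Kupffer cell genes (y axis) against that of the 4 general macrophage genes at their main probes (x axis), 1 point per array for the 31 arrays fitted, with a line where both are equal. The 7 Myc tumors lie furthest below the line, between -4.52 and -2.19, the 3 Myc off 4 weeks livers between -1.82 and -0.30, and the 3 controls between -0.05 and 0.50.

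Among 10 other genes of Kupffer cells, 3 were lower and 2 higher in Myc tumors than in controls, with a median difference of -0.10. Over all probes tested, 15.9% were called lower and 18.3% higher. Those lower were Id3 (-3.65; SE 0.49; limma adjusted p = 7.7e-06) and Nr1h3 (-0.66; SE 0.17), transcription regulators that maintain the Kupffer cell programme, and Folr2 (-2.03; SE 0.44), a folate receptor. Those higher were Slc11a1 (1.89; SE 0.37), a metal transporter of phagosomes, and Spic (1.58; SE 0.44), a regulator of iron-recycling macrophages. Id3 is also made by other cells, among them endothelium, and Spic is named after its value was seen. All 5 kept their sign between Myc tumor 1 and control 2.

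Of 15 other pan-macrophage genes, 6 were higher and none lower, where 18.3% of all probes were called higher. Their median was 1.01 against -0.01 for all probes. Cd14, a receptor for bacterial lipopolysaccharide, rose by 2.12 (SE 0.50), Lyz2, a lysozyme of myeloid cells, by 1.89 (SE 0.52), and the signalling adaptors Fcer1g and Tyrobp by 1.24 (SE 0.37) and 1.18 (SE 0.36). On the shared scan day 5 of the 6 kept their sign, and the exception was C1qc, a further chain of C1q, at -0.55. C1qc is named here after its value was seen.

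Genes of lipid-associated macrophages, a state described in fatty and injured liver, rose in Myc tumors for 8 of 9 members, with a median of 3.55. Of all probes, 18.3% were called higher. Trem2, a lipid receptor of this state, rose by 4.56 (SE 0.77; limma adjusted p = 8.32e-05), from -1.52 to 0.14 in controls to 2.46 to 4.87 in Myc tumors. Gpnmb, a lysosomal glycoprotein, rose by 5.29 (SE 1.19), Lgals3 by 3.57 (SE 0.59) and Cd63 by 3.55 (SE 0.42). All 8 kept their sign on the shared scan day, with Trem2 at 2.44 and Gpnmb at 4.15. Lgals3 and Cd63 are also made by many other cells, tumor cells included, and 7 to 8 of the 9 genes were well above background in the control livers.

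The monocyte genes moved both ways, 4 higher and 2 lower of 9, and 5 of the 6 called kept their sign on the shared scan day. Chil3, a chitinase-like protein of monocytes and activated macrophages, rose by 5.36 (SE 0.54; limma adjusted p = 3.82e-07) and F13a1 by 3.93 (SE 0.77), while Vcan fell by 2.15 (SE 0.55). Among 7 tested genes of the CSF1 axis and monocyte attractants, Csf1 was lower (-1.36; SE 0.30; limma adjusted p = 0.00127) and Ccl2, a chemokine that draws monocytes, was higher (2.37; SE 0.61; limma adjusted p = 0.00400). Csf1 lay at 0.07 to 0.38 in controls and -1.88 to -0.30 in Myc tumors, without overlap.

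Markers of other cell types were also called in the same tumors, where 15.9% of all probes were called lower and 18.3% higher. The part of these cell types in the macrophage values was not tested. The neutrophil list rose in 3 of 7 tested genes, and its mean ratio went from 0.67 to 0.85 in controls to 0.83 to 4.15 in Myc tumors, where 5 to 7 of the 7 genes were well above background. S100a8 (3.51; SE 0.78) and S100a9 (2.69; SE 0.70), which monocytes also make, were higher over all tumors but at -0.31 and -0.96 between Myc tumor 1 and control 2, whereas Mpo (3.84; SE 0.90) was 1.40 there. The endothelial list fell in 4 of 7 genes, led by Oit3 (-4.09; SE 0.58) and Clec4g (-4.17; SE 0.65) of the sinusoids, and its mean went from -0.55 to -0.45 in controls to -3.19 to -1.30. The hepatocyte list fell in 6 of 8, and its mean went from -0.07 to 0.12 in controls to -3.32 to -0.69. The stellate list fell in 3 of 6 genes, Reln, Lrat and Hand2, and rose in Col1a1. T and B cell markers fell in 2 of 9 and dendritic markers in 1 of 4 tested, counts near the share of all probes called lower. The mean of the T and B list lay at -0.93 to 0.55 in Myc tumors, around the 0.04 to 0.37 of the controls. Of the 3 intestine markers tested Vil1 rose (4.03; SE 0.72) and Fabp2 fell (-1.87; SE 0.65).

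**Figure D4:**
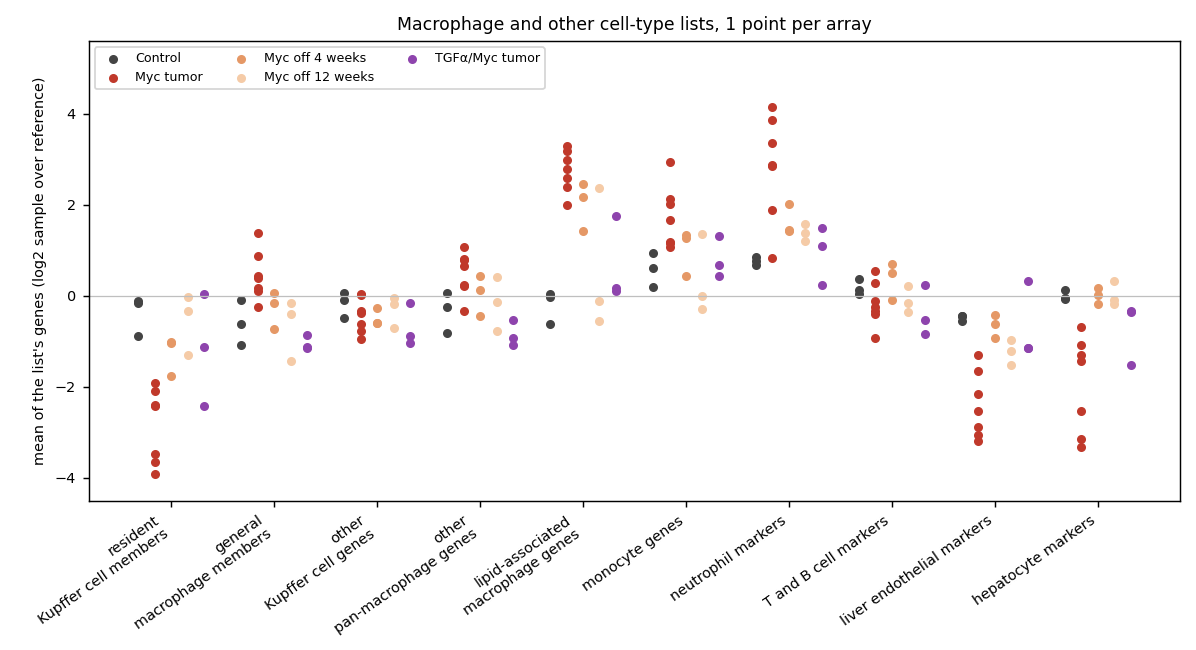
Mean log2 ratio of sample over reference (y axis) of the genes of 10 lists (x axis) in control livers, Myc tumors, Myc off livers and TGFα/Myc tumors, 1 point per array. In the Myc tumors the resident list lies at -3.92 to -1.92 and the lipid-associated list at 2.00 to 3.28, against -0.88 to -0.12 and -0.62 to 0.03 in the controls.

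When Myc had been off for 4 weeks, 4 of the 6 resident markers were higher than in Myc tumors, and Cd5l, Cd68 and C1qb were lower, where 14.1% of all probes were called higher and 17.2% lower. Clec4f lay at -0.15, -0.11 and -0.72, above every Myc tumor, as were 12.5% of all probes, a difference of 4.28 (SE 0.77; limma adjusted p = 0.000205). Cd163 lay at -0.92, -1.31 and -3.17, a difference of 2.18 (SE 0.50; limma adjusted p = 0.00182). Replicate 3 was within the range of the Myc tumors for Cd163, and for Marco too, which lay at -1.16, -1.38 and -2.62 (difference 2.14; SE 0.76; limma adjusted p = 0.0343). The Marco call was lost in 9 of 23 alternatives, among them those without Myc off 4 weeks replicate 1 (1.86) or 2 (1.97) and without Myc tumor 3 (1.88), 6 (2.04) or 7 (1.93).

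Vsig4 lay at -1.99, -1.89 and -1.94 after 4 weeks, all above the tumors (difference 1.91; SE 0.61; limma adjusted p = 0.0192), and Timd4 at -0.30, -0.15 and -0.49, within their range (0.54; SE 0.40; limma adjusted p = 0.335). Cd68 lay at -0.28, 0.99 and 1.25, below every tumor, as were 15% of all probes, though by little for replicate 3. In 2 of the 3 livers it was still above all controls. The Cd68 difference from the tumors was -1.32 (SE 0.41; limma adjusted p = 0.0165). C1qb fell by 1.42 (SE 0.40; limma adjusted p = 0.00795) and Cd5l by 1.70 (SE 0.47; limma adjusted p = 0.00746). Against Myc tumor 1 alone, on the shared scan day, the 3 livers differed by 2.52 for Clec4f, 2.29 for Cd163, 1.14 for Vsig4 and 1.10 for Marco, and by -0.61 for Cd68, -0.29 for C1qb and -0.18 for Cd5l. With scan day as a block all 7 calls were lost, with limma adjusted p of 0.0983 for Cd163 to 0.906 for Cd5l. Without Myc off 4 weeks replicate 1, 3 member probes were called, with Cd68 at -0.85, C1qb at -1.25 and Vsig4 at 1.94 no longer called. The Vsig4 call was also lost without replicate 2 (1.89) or 3 (1.91).

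After 12 weeks, 5 resident markers were higher than in Myc tumors, and Cd5l, Cd68 and C1qb were lower, where 16.3% of all probes were called higher and 17.7% lower. Clec4f lay at 0.76, 0.29 and -0.40, a difference of 4.82 (SE 0.77; limma adjusted p = 4.51e-05). Cd163 lay at -0.33, -0.50 and -0.85, a difference of 3.42 (SE 0.50; limma adjusted p = 1.74e-05), and Marco at -0.10, -0.66 and -1.68, a difference of 3.04 (SE 0.76; limma adjusted p = 0.00331). For these genes all 3 livers were above all Myc tumors, as for 11.4% of all probes.

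Timd4, at 0.81, 0.72 and -0.09, rose by 1.33 (SE 0.40; limma adjusted p = 0.0132), and Vsig4, at -0.57, -0.87 and -2.74, by 2.46 (SE 0.61; limma adjusted p = 0.00318), although its replicate 3 was within the range of the tumors. Cd68 lay at -0.12, 1.07 and -0.79 and C1qb at -0.32, -0.87 and -1.63, below all Myc tumors, as were 11% of all probes. For C1qb the gap was small, with replicate 1 (-0.32) just under the lowest tumor (-0.24). The differences were -1.92 (SE 0.41; limma adjusted p = 0.000929) for Cd68 and -1.83 (SE 0.40; limma adjusted p = 0.00103) for C1qb. Cd5l fell by 1.41 (SE 0.47; limma adjusted p = 0.0226). The Cd5l call was lost without Myc off 12 weeks replicate 3 (-0.99), and that of Timd4 without replicate 1 (1.17) or 2 (1.21). With scan day as a block, which leaves only Myc tumor 1 to inform the tumor mean, Clec4f, Marco, Cd163, Vsig4 and Timd4 kept their sign at 1.87 to 4.01 without passing the threshold, and Cd5l, Cd68 and C1qb changed sign.

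Genes of the other macrophage lists were also called after 12 weeks, where 17.7% of all probes were called lower and 16.3% higher. Of the lipid-associated genes 7 of 9 were lower than in Myc tumors, Cd63 by -3.16 (SE 0.42) and Lgals3 by -2.50 (SE 0.59). Of the other pan-macrophage genes 6 of 15 were lower, C1qc and Cd14 among them. Csf1 was higher by 1.26 (SE 0.30; limma adjusted p = 0.00252), Folr2 by 2.03 (SE 0.44) and Nr1h3 by 0.73 (SE 0.17). After 4 weeks 2 of 9 lipid-associated genes were called lower, near the 17.2% of all probes, and the difference between 4 and 12 weeks was not tested.

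Against control livers, 0 of the 12 member probes were called in limma for any of the 6 off groups, where 0.0222% of all probes were called for Myc off 4 weeks and 0.0127% for Myc off 12 weeks. At an unadjusted p under 0.05, Myc off 4 weeks had 3 member probes, Marco (-2.21; SE 0.90), Timd4 (-1.18; SE 0.48) and Cd68 (1.23; SE 0.49), and Myc off 12 weeks had 0. The TGFα off 12 weeks livers had 1 such probe and the other 3 off groups had 0. The SE of these differences was 0.38 to 1.01. The resident mean less the general mean was -1.82 to -0.30 in Myc off 4 weeks livers and 0.07 to 0.13 after 12 weeks, against -0.05 to 0.50 in controls. Myc off 4 weeks lay below the controls in all 3 livers and Myc off 12 weeks within their range.

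**Figure D5:**
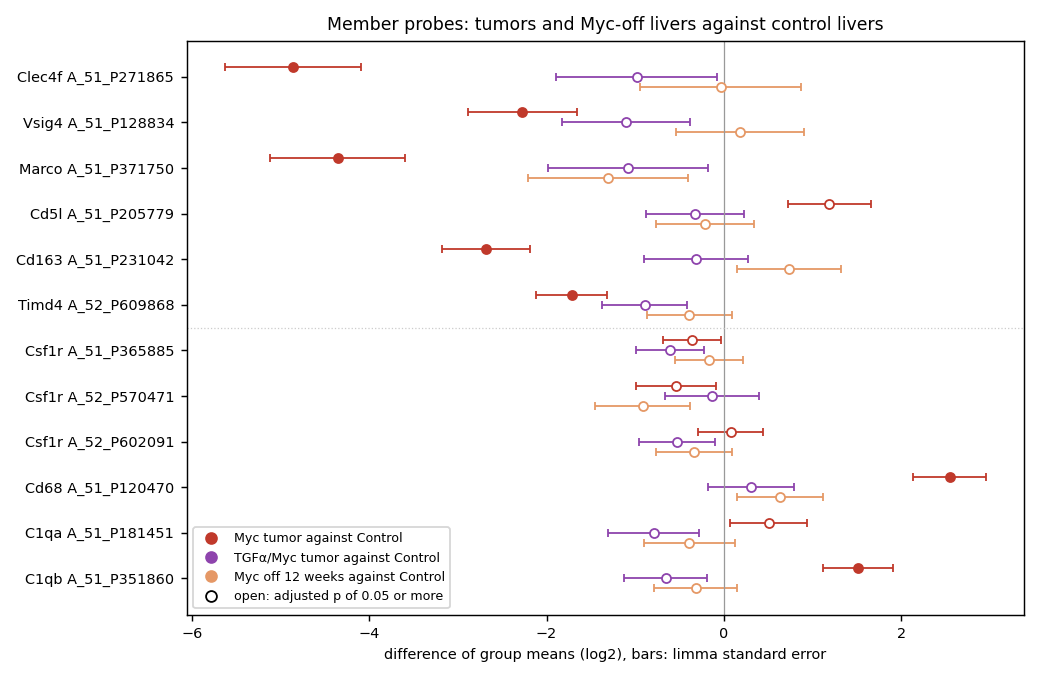
Difference from control livers in log2 ratio (x axis) with its limma standard error for the 12 member probes (y axis) in Myc tumors, TGFα/Myc tumors and Myc off 12 weeks livers, filled where the adjusted p was under 0.05. The filled points are 7 Myc tumor differences, from -4.86 for Clec4f to 2.55 for Cd68, and the dotted line parts the resident from the general markers.

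In TGFα/Myc tumors 0 of 12 member probes were called against controls in limma, 0 also at an unadjusted p under 0.05, where 6.42% of all probes were called. The 3 tumors were far apart. Clec4f lay at -2.60, 0.89 and -0.47, Marco at -2.83, 1.21 and -0.15 and Cd163 at -2.80, -0.12 and -1.91. Tumor 1 was below all controls for these 3 genes, and tumor 2 was within or above the controls. Tumor 3 lay between tumors 1 and 2, below all controls for Clec4f and Cd163 and within their range for Marco. Cd68 lay at 0.51, -0.49 and -0.84, with tumor 1 again apart. The resident mean less the general mean was -1.28, 0.89 and 0.02 (mean -0.12, SD 1.09).

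C1qa and C1qb were tighter, at -1.71, -0.93 and -1.15 and at -1.41, -1.16 and -1.27, with differences from controls of -0.79 (SE 0.51; limma adjusted p = 0.388) and -0.66 (SE 0.47). These were the lowest group means of both genes among the 10 groups. Tumors 1 and 2 shared a scan day with control 1, which was the lowest control for both, and there the differences were -0.49 for C1qa and -0.02 for C1qb.

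Set against the Myc tumors, TGFα/Myc tumors were higher in Clec4f (3.88; SE 0.77; limma adjusted p = 0.000675), Marco (3.27; SE 0.76; limma adjusted p = 0.00259) and Cd163 (2.37; SE 0.50; limma adjusted p = 0.00112). They were lower in Cd5l (-1.51; SE 0.47), Cd68 (-2.25; SE 0.41), C1qa (-1.30; SE 0.43) and C1qb (-2.17; SE 0.40). This made 7 of 12 member probes, where 28.2% of all probes were called, 11.8% higher and 16.4% lower. For Clec4f all 3 TGFα/Myc tumors were above all Myc tumors, although tumor 1 was so by little, as for 5.94% of all probes, and for Cd68, C1qa and C1qb all 3 were below, as for 10.2%. The tumor types were scanned on separate days, and with scan day as a block no member was called and Cd5l, C1qa and C1qb changed sign. The Marco call was lost without TGFα/Myc tumor 2 (2.37), that of Cd5l without tumor 1 (-1.38) or 3 (-1.36), and that of C1qa without tumor 1 (-1.08), 2 (-1.47) or 3 (-1.36) or Myc tumor 4 (-1.09). Of the lipid-associated genes 7 of 9 were lower than in Myc tumors, Trem2 by -3.13 (SE 0.77), and of the other pan-macrophage genes 11 of 15 were, Adgre1, the F4/80 antigen, by -3.11 (SE 0.58).

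After the transgenes were turned off in TGFα/Myc animals, Vsig4 was the single member called, at 4 weeks. It lay at -0.82, -1.07 and 0.14 against -3.66, -1.84 and -2.55 in the tumors. TGFα/Myc off 4 weeks replicate 3, at 0.14, was alone on its slide and scan day. Its mean correlation with its group mates over tested probes, 0.15, was the lowest of the arrays fitted. The Vsig4 difference was 2.10 (SE 0.72; limma adjusted p = 0.0440), where 18.5% of all probes were called, 10.3% higher. The call was lost in 13 of 17 alternatives, with the difference down to 0.75 after normexp background correction and loess. Leaving out any 1 of the 6 livers and tumors but TGFα/Myc tumor 2 ended it, at 1.61 to 2.34, and without that tumor 3 members were called. At 12 weeks 0 member probes were called in limma, 2 at an unadjusted p under 0.05 (Vsig4, 1.53; SE 0.72, and Csf1r at A_51_P365885, 0.94; SE 0.38), against 15.5% of all probes called.

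The change after turn-off differed between the genotypes for 3 member probes at each time, where 19.4% of all probes were called at 4 weeks and 10.4% at 12 weeks. The Clec4f response at 4 weeks was smaller in TGFα/Myc than in Myc livers by -3.50 (SE 1.19; limma adjusted p = 0.0392), 0.78 against 4.28. The TGFα/Myc and Myc off 4 weeks livers themselves lay close, at means of 0.05 and -0.33 for Clec4f and -0.55 and -0.54 for C1qb. The 4-week differences of these genes thus came mainly from the tumors, at -0.73 and -4.60 for Clec4f and -1.28 and 0.89 for C1qb. The Clec4f call was lost on leaving out any of 9 libraries, down to -2.69 without TGFα/Myc tumor 2. Without TGFα/Myc off 4 weeks replicate 3 only 1 probe was called at 4 weeks. C1qb differed by 0.73 and 0.67 after turn-off in TGFα/Myc livers, where it fell in Myc livers, and the difference between genotypes was 2.16 (SE 0.61; limma adjusted p = 0.0156) at 4 and 2.50 (SE 0.61; limma adjusted p = 0.0134) at 12 weeks. Neither of the TGFα/Myc values passed the test by itself. Cd5l differed in the same direction, by 2.41 (SE 0.73; limma adjusted p = 0.0216) and 2.26 (SE 0.73; limma adjusted p = 0.0466), and Cd163 at 12 weeks by -2.84 (SE 0.77; limma adjusted p = 0.0217). At 12 weeks the number of calls ranged from 0, without Myc off 12 weeks replicate 3 or TGFα/Myc off 12 weeks replicate 2, to 6, without TGFα/Myc off 12 weeks replicate 3. It was 1 without TGFα/Myc tumor 2 and 5 without TGFα/Myc tumor 1 or Myc off 12 weeks replicate 1. The 12-week Cd5l call was lost on leaving out any of 11 of the 16 libraries (1.85 to 2.54), and with Myc tumors 3 and 4 averaged (2.17; limma adjusted p = 0.0576). With scan day as a block no 12-week response was called: C1qb stood at 0.15 (limma adjusted p = 0.973), Cd5l at -0.49 and Cd163 at -2.71. The 12-week C1qb value was 1.45 and no longer called after normexp background correction and loess (limma adjusted p = 0.125).

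In the off livers of TGFα animals Clec4f lay at 0.48 and 0.78 (4 weeks, replicates 2 and 3) and at 1.24, 0.87 and -0.07 (12 weeks), and no member was called against controls, where 0.374% and 0.158% of all probes were. The 1 probe at an unadjusted p under 0.05 was Cd163 after 12 weeks, at -0.05, -0.06 and -0.06 against a control mean of -1.29 (difference 1.24; SE 0.59; limma adjusted p = 0.417). Against controls, 2.36% of probes were called for TGFα/Myc off 4 weeks and 0.105% for TGFα/Myc off 12 weeks, again with no member.

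In the library labelled TGFα tumor replicate 1, Clec4f lay at -1.27, Marco at -1.04, Cd163 at -3.25 and Cd68 at 0.86, between the controls and the Myc tumors for all 4 genes apart from Cd163, which was within the range of the Myc tumors. The 3 arrays treated apart lay at 0.00 to 1.45 for Clec4f, -0.23 to 1.32 for Vsig4 and -0.01 to 0.51 for Cd68, with Clec4f and Vsig4 not well above background on TGFα tumor replicate 3 and TGFα off 4 weeks replicate 1. Since their reference was unlike the others, these ratios cannot be set beside the rest.

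Over the 10 groups, ordered by mean, neighbours overlapped in range for most pairs. For Clec4f the order ran from TGFα/Myc off 12 weeks (0.71, SD 0.57, n = 3) through TGFα off 12 weeks (0.68, SD 0.68), TGFα off 4 weeks (0.63, SD 0.21, n = 2), controls (0.26, SD 0.35), Myc off 12 weeks (0.22, SD 0.58), TGFα/Myc off 4 weeks (0.05, SD 0.33), Myc off 4 weeks (-0.33, SD 0.34), TGFα/Myc tumors (-0.73, SD 1.76) and the library labelled TGFα tumor 1 (-1.27) to the Myc tumors (-4.60, SD 1.85, n = 7). The step to the Myc tumors was the only 1 of the 9 without overlap. For Cd68 the Myc tumors stood at the top (1.97, SD 0.54), clear of the next, and the controls at the bottom (-0.58, SD 0.42), with only the step below the Myc tumors free of overlap.

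Marco, Vsig4, Cd163 and Timd4 were likewise lowest in the Myc tumors, and Cd5l and C1qb highest there. C1qa, Cd5l, Timd4 and the Csf1r probes A_51_P365885 and A_52_P602091 had no neighbours without overlap. The 12-week livers were spread along a shared axis: in each of the 3 genotypes replicate 3 was lowest in both the resident and the general mean, at -1.31 and -1.43 for Myc and at -1.07 and -1.22 for TGFα, with the same order for TGFα/Myc. The resident mean less the general mean nevertheless stayed within 0.07 to 0.39 in all 9 of these livers.

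Over the 31 arrays fitted, the genes whose ratio followed that of Clec4f most closely were Gdf2 (Pearson r = 0.959), Dnase1l3 (0.951), Chn2 (0.948), Cyp2a12 (0.947) and Cadps2 (0.947). The resident members came further down the order, which was taken over 23423 probes. Marco stood at 0.901 (place 86), Cd163 at 0.873 (place 193), Vsig4 at 0.869 (place 210) and Timd4 at 0.803 (place 580). Cd5l stood at -0.440 and the general marker Cd68 at -0.776. These correlations describe arrays that share a reference and, for 6 Myc tumors, a scanner. Within the 7 Myc tumors r with Clec4f was 0.901 for Vsig4 and 0.895 for Marco, and over the other 24 arrays it was 0.624 and 0.691. Cd5l turned sign, at -0.317 within the Myc tumors and 0.60 over the other 24 arrays, and so did C1qb, at -0.619 over all 31 and 0.298 over the 24. Cd68 stood at -0.242 over the 24.

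C1qa was followed most closely by Pld4 (r = 0.860), Mtmr14 (0.853), Ogfr (0.852), Arfgap2 (0.851) and Slc28a2 (0.836), with C1qb at 0.820. Without the Myc tumors C1qa stood at 0.938 with C1qb, 0.808 with Vsig4, 0.770 with Cd5l and 0.430 with Clec4f, and within them at -0.253 with Vsig4. Over those 24 arrays Cd163 stood at -0.112 with C1qa. These values describe the arrays and carry no test.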

How the data were processed

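RNA of 34 mouse liver and tumor samples was measured on 2-colour 44K arrays. The deposited scanner files give processed Cy3 and Cy5 intensity and a log10 ratio of Cy5 over Cy3 that the scanner software had background-subtracted and dye-normalized, per the file headers, with a local background setting on 23 arrays and the default on 11, the 7 Myc tumors, control 2 and the 3 Myc off 4 weeks livers. The authors' deposited series matrix holds log2 values of the same arrays, with their scale, centring and direction not stated, and served as an alternative. The submitters' processing notes name limma, without a version.

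The sign of the log ratio was turned to sample over reference and converted to log2, spots of a probe were averaged, control spots and outlier flags were left out, and probes well above background on at least 3 of the arrays were kept, which left 31563 of 41174. A linear model over 31 arrays with a mean per group was fitted with limma 3.58.1 in R 4.3.3, with p-values adjusted over all probes by Benjamini-Hochberg at a threshold of 0.05, and tested on simulated data. The 3 arrays that differ in their reference were left out of the fit, and the library labelled TGFα tumor 1 kept a mean of its own. The 10 marker genes, the gene lists and the tests were chosen with earlier results of these data known, and the lists support nothing by themselves.

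A gene's main probe was its tested probe with the highest mean Cy3 signal. Genes of other lists were named where they were among the 4 with the smallest adjusted p in a comparison, and for Clec4f and C1qa the 5 genes with the highest correlation over arrays were named. Replicate numbers were checked for pairing: over 38 pairs of same-numbered samples the correlation of deviations from the group means was -0.309 to 0.41, and it was over 0.1 for every pair in only 2 comparisons, those of TGFα/Myc off 12 weeks and TGFα off 12 weeks with controls. Alternatives covered background correction, centring, filters, blocks for replicate, slide and scan day, a sex score, averaging Myc tumors 3 and 4, and leaving out each replicate. The number of arrays limits the precision. Some genes of the lists count in the totals but are not reported here by name.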

Additional observations from a re-analysis of the deposited data

Results flagged for a closer look

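The change after the transgene was turned off differed between TGFα/Myc and Myc livers in an interaction test (limma, adjusted p under 0.05) for Clec4f at 4 weeks (-3.50), for Cd5l at 4 weeks (2.41) and 12 weeks (2.26), for C1qb at 4 weeks (2.16) and 12 weeks (2.50), and for Cd163 at 12 weeks (-2.84). At 4 weeks the TGFα/Myc and Myc off livers lay close for Clec4f (means 0.05 and -0.33) and C1qb (-0.55 and -0.54). The 4-week differences of these genes thus came mainly from the tumors. The Myc tumors enter both responses on 1 side and were for the most part scanned apart from the other groups. The part of the scan in the interaction values was not tested at 4 weeks. With scan day as a block none of the 12-week values was called, with Cd5l at -0.49, C1qb at 0.15 and Cd163 at -2.71.

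The library labelled TGFα tumor replicate 1, which is in no comparison, lay above all 3 controls for Csf1r at probe A_52_P570471 (1.48), for Cd68 (0.86), for C1qa (0.30) and for C1qb (0.31). None of the 12 member probes had a single outlying array among the 7 Myc tumors by Dixon's criterion.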

How the results depend on the processing

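With scan day as a block, which by construction leaves Myc tumor 1 as the only Myc tumor compared within a day, the number of member probes called fell from 7 to 0 for Myc tumors against controls, from 7 to 0 and 8 to 0 for Myc off 4 and 12 weeks against Myc tumors, from 7 to 0 for TGFα/Myc against Myc tumors and from 3 to 0 for the 12-week response. Under that block C1qb changed sign for Myc tumors against controls (-0.23), Cd5l (1.66), Cd68 (0.63) and C1qb (0.62) for Myc off 12 weeks against Myc tumors, Cd5l (1.39), C1qa (0.19) and C1qb (0.21) for TGFα/Myc against Myc tumors, and Cd5l (-0.49) for the 12-week response. No other alternative turned a called value. The 1 call for TGFα/Myc off 4 weeks against tumors became 0 with normexp and loess, Cy3 signal alone, series matrix values, no filter, all 34 arrays, only the groups compared, slide as a random block or a sex score. The 12-week response had 1 call with normexp and loess, all 34 arrays, only the groups compared or slide as a random block.

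Leaving out each replicate gave 6 to 8 calls for Myc tumors against controls, 3 to 8 and 7 to 8 for Myc off 4 and 12 weeks against tumors, 5 to 7 for TGFα/Myc against Myc tumors, 0 to 3 and 0 to 1 for TGFα/Myc off 4 and 12 weeks against tumors, and 1 to 3 and 0 to 6 for the 4-week and 12-week responses. Of 36 called member values, 20 were called in every such fit. The remaining comparisons with controls had 0 calls throughout. With Myc tumors 3 and 4 averaged there were 7, 8, 8 and 7 calls in the 4 comparisons with Myc tumors, in the order above, and 3 and 2 for the responses.

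With the replicate number as a block, Myc off 4 weeks against Myc tumors had 4 calls in place of 7. Nothing in the labels pairs these samples by number. In the 2 comparisons where the deviations of same-numbered samples correlated over 0.1 for every pair, there were 0 member calls with and without the block.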
